A study of Homo sapiens with 40 samples.

Results

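Developmental transcription factors are DNA-binding proteins that set up organs and cell lineages in the embryo, and 48 of their genes that serve as classic targets of Polycomb repression were followed in 10 cell lines of DLBCL, diffuse large B-cell lymphoma. The members were a named list of 4 GATA, 4 PAX, 5 SOX, 5 forkhead, 5 T-box, 18 homeobox, 4 bHLH and 3 other zinc finger genes. For each gene, of the probe sets annotated to that symbol alone, the one with the highest mean over the 40 arrays was used, and 46 of the 48 members had such a probe set among 19775 genes. FOXC1 and NEUROD1 were not analysed here.

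Polycomb repressive complex 2 contains the methyltransferase EZH2, which places trimethyl marks on lysine 27 of histone H3 at genes that a cell keeps silent. Regulators of other lineages are its best known targets, usually through CpG-rich promoters, and in B cells such genes are held off while regulators of the B cell programme stay on. Many of the members act in the nervous system, heart, kidney, limb or face, but SOX4, MEIS1 and GATA2 also work in blood-forming cells.

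GSK126 is a small-molecule inhibitor of EZH2. The 7 EZH2-mutant lines, with their labelled growth IC50, were Pfeiffer (28 nM), WSU-DLCL2 (134 nM), KARPAS-422 (232 nM), SU-DHL-10 (448 nM), SU-DHL-6 (582 nM), DB (861 nM) and SU-DHL-4 (4828 nM). The 3 EZH2 wild type lines were HT (516 nM), OCI-LY-19 (1019 nM) and Toledo (13786 nM). The labels used here name no EZH2 allele. Cultures of every line received 500 nM GSK126 or 0.1% DMSO as vehicle for 72 h, with 2 arrays for each of the 20 groups. A line counts as 1 sample of its genotype.

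The values were deposited log2 signals of Affymetrix arrays made with MAS5, which scales each array separately. The median of all probe sets lay between 5.88 and 6.47 on the 40 arrays, and a gene was taken as above background in a group when its probe set exceeded that median on both arrays. Changes are differences of log2(signal + 17.7), which understate the change of dim genes, and ± is their standard error. A gene was tested when it exceeded the median on at least 2 of the 40 arrays, which held for 27 of the 46 members and 15211 of all genes. A change was called when its Benjamini-Hochberg adjusted p in limma, over all genes tested in that line, was under 0.05. The p-values measure only the spread between arrays that the titles call biological replicates. In these bulk samples fewer cells with a transcript and less of it per cell cannot be told apart. Replicate arrays correlated at 0.938 to 0.959. Of the B cell markers, 6 of the 7 with a probe set were above background in all 10 lines, and MS4A1 was so in 9.

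The lymphoma lines kept many of these genes silent, but each line had a few that were expressed. Of the 46 members, 24 were above background in at least 1 line under GSK126 and 25 in at least 1 line under DMSO, where 70.5% of all genes were so in each case. By the probe set used, only PAX8 and MEIS2 were above it in all 10 DMSO groups, where 42% of all genes were. For PAX8 that rests on 1 of 8 probe sets: of its other 7, 1 was above background in 9 DMSO groups, 1 in 1 and 5 in none. Levels and line counts below are those of the probe set used, and 7 of the 30 members with another probe set had one above background in a DMSO group where the probe set used was not (DLX2, GATA4, GATA6, MSX1, SOX2, SOX4 and TBX2). In no group of either treatment were 21 members above background, against 27.2% of all genes. Pfeiffer had 14 members above it under GSK126 and 14 under DMSO, beside 58% and 57.1% of all genes. WSU-DLCL2 had 8 under GSK126 and 8 under DMSO, beside 56% and 55.5%. KARPAS-422 had 14 under GSK126 and 15 under DMSO, beside 55.5% and 55%. These 3 lines, the most sensitive ones, included both ends of the DMSO counts. SU-DHL-10 had 8 under GSK126 and 11 under DMSO (55% and 54.6%), HT 9 and 8 (55.8% and 55.1%), and SU-DHL-6 9 and 9 (54.9% and 54.8%). DB had 13 under GSK126 and 12 under DMSO (55.1% and 54.9%), while OCI-LY-19 had 12 under GSK126 and 14 under DMSO (54.8% and 54.5%). In SU-DHL-4 there were 8 under GSK126 and 9 under DMSO (55.3% and 54.8%), and Toledo 7 and 11 (55% and 54.5%). The share of members was thus below that of all genes in every line. With the 60th percentile of each array as the threshold instead, 17 members were above it in at least 1 DMSO group.

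**Figure D1:**
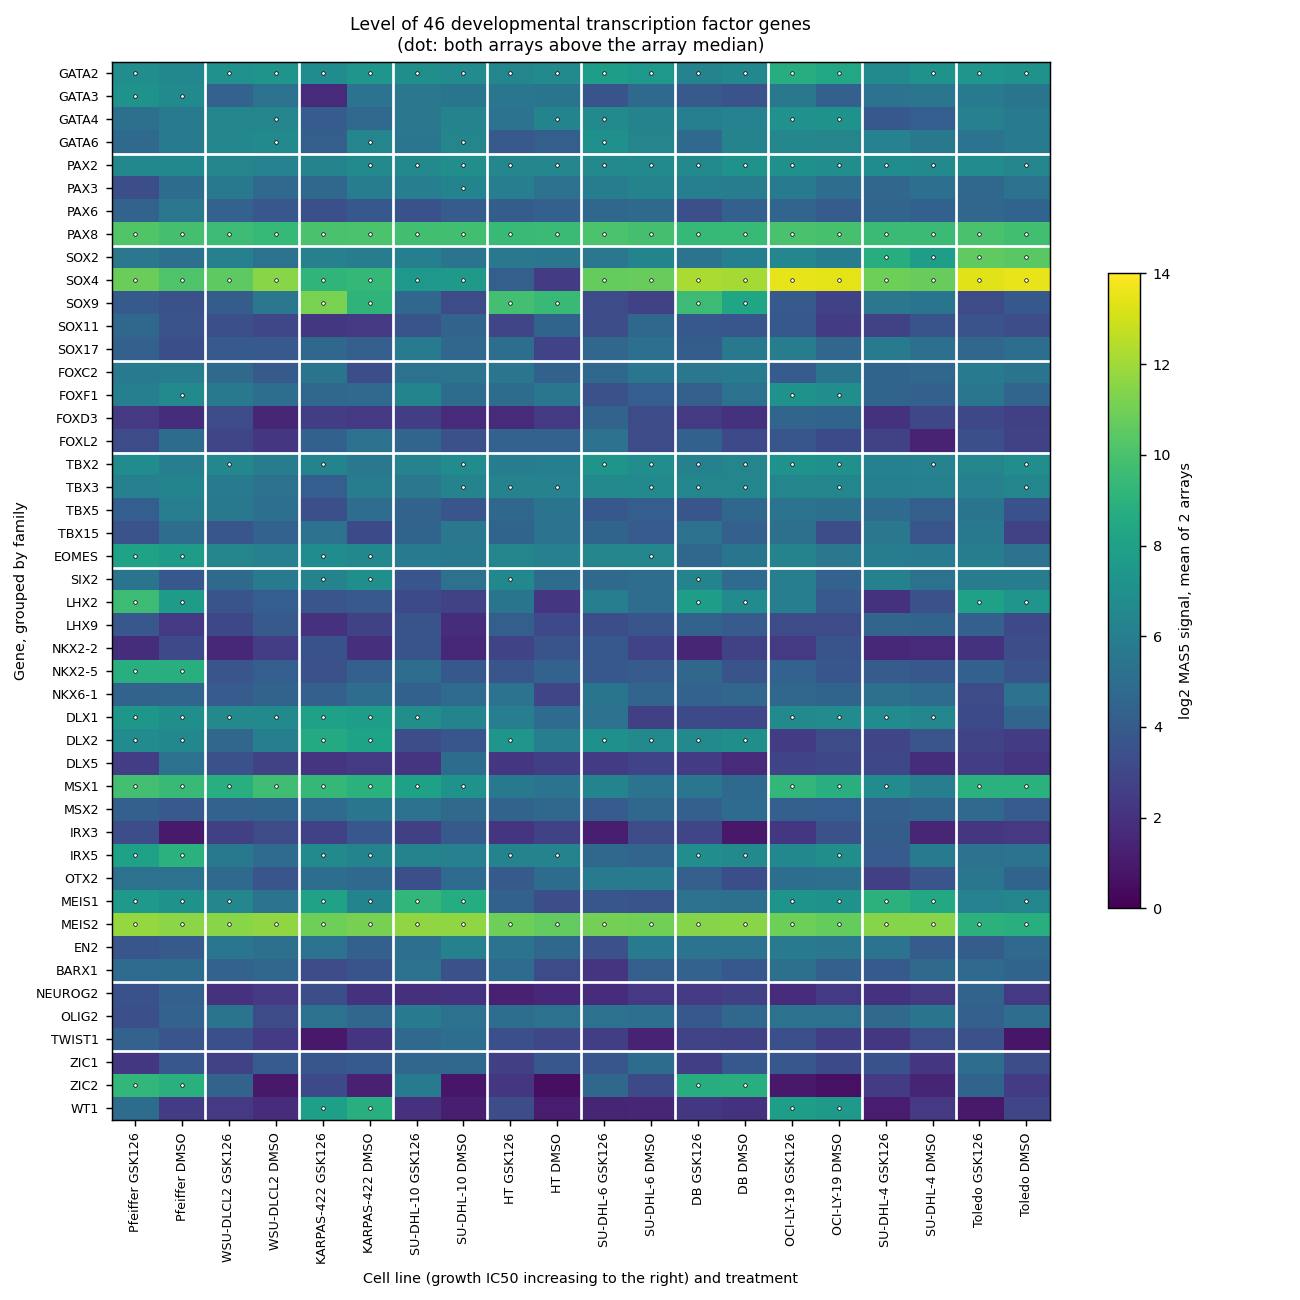
Log2 MAS5 signal of the 46 members in the 20 groups, as the mean of 2 arrays; columns run by line in order of growth IC50, with GSK126 left of DMSO, and rows by gene family. A dot marks a group in which both arrays exceeded their median. PAX8 and MEIS2 carry dots throughout, while SOX9, LHX2, ZIC2 and WT1 carry them in 2 or 3 lines under either treatment.

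Vehicle levels differed among the lines for 19 of the 27 tested members (F-test in limma, adjusted over all genes), where 84.6% of all tested genes differed. A member could pass the filter through the line where it is bright, as NKX2-5 did with 4 arrays above the median. The count therefore describes the members that passed and is no separate evidence that they differ. SOX4, a SOX factor needed for B cell progenitors, spanned the widest range. Its DMSO mean was 13.51 in Toledo, 13.43 in OCI-LY-19 and 12.12 in DB, and only 2.41 in HT, which was the single line below the array median by this probe set. SOX9, a regulator of cartilage and testis, was expressed under DMSO in HT at 9.50, KARPAS-422 at 9.09 and DB at 8.21, and was between 2.74 and 5.56 in the other 7 lines. SOX2, a pluripotency and neural factor, was expressed under DMSO in Toledo at 10.43 and SU-DHL-4 at 7.87. No other line had both arrays of this probe set above the median, while another probe set of SOX2 was above it in KARPAS-422, at 6.12 under GSK126 and 6.47 under DMSO.

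Other members differed in the line where they were highest, and NKX2-5 was above background in a single line. NKX2-5, a regulator of heart formation, was at 8.98 and 8.67 on the GSK126 arrays of Pfeiffer and at 8.49 and 9.04 on its DMSO arrays, with no array above the median in the other 9 lines. The treatments overlapped there, and the change was 0.06 ± 0.34 (adjusted p = 0.933). IRX5, which patterns heart and retina, was highest under DMSO in Pfeiffer at 8.96. MSX1, a regulator of tooth and face formation, was highest under DMSO in WSU-DLCL2 at 9.70, and MEIS1, a HOX cofactor of blood stem cells, in SU-DHL-10 at 8.67. ZIC2, which shapes the dorsal neural tube, was at 8.86 in Pfeiffer and 8.80 in DB under DMSO, against at most 3.16 in the others. WT1, a kidney and gonad regulator, was at 8.83 in KARPAS-422 and 7.54 in OCI-LY-19 under DMSO, and at most 2.90 in the other lines. MEIS2, the paralog of MEIS1, lay between 8.85 in Toledo and 11.67 in WSU-DLCL2, and PAX8, a thyroid and kidney factor, between 9.36 and 10.01, both under DMSO.

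Most promoters of the members were rich in CpG, the dinucleotide that marks the class of promoter Polycomb proteins are known to occupy. Most protein-coding promoters were so too. RefSeq promoter windows of GRCh38.p14, reaching from 250 bases before to 50 bases after the start, matched 32 of the 48 members by symbol. The median ratio of observed to expected CpG was 0.81 in the members, against 0.76 in 15843 protein-coding genes. A ratio of at least 0.6 was reached by 26 of the 32 members and by 65.8% of the protein-coding promoters. PAX8, SOX4, OTX2, PAX2, WT1 and GATA3 were below it, with 0.48 for PAX8 as the lowest and 0.58 for GATA3 as the highest of them. On both strands together, the GC box GGGCGG was found in 16 of the 32 windows and 58.5% of protein-coding ones, TATAAA in 1 and 9.63%, and the E-box CACGTG in 3 and 8.88%; the GC box holds a CpG itself. These letter matches describe the windows and are not binding sites.

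Shown are the 250 bases before the start of the 4 members in this table with a change above background that held both in every alternative setting and without any array. CpG dinucleotides are in capitals. The windows are SOX4 at chr6:21593501-21593750, LHX2 at chr9:124011518-124011767, MSX1 at chr4:4859415-4859664 and MEIS1 at chr2:66434875-66435124, all on the + strand.
SOX4: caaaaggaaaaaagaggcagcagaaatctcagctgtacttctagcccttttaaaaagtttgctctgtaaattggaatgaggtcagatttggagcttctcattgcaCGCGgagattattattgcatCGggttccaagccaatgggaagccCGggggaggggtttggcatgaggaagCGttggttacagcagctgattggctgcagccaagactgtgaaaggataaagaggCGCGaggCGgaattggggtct
LHX2: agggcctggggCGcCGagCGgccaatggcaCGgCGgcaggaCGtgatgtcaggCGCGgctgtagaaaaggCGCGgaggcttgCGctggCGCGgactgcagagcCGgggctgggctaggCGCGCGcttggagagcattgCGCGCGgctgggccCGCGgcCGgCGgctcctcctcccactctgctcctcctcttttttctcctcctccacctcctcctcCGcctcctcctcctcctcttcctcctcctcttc
MSX1: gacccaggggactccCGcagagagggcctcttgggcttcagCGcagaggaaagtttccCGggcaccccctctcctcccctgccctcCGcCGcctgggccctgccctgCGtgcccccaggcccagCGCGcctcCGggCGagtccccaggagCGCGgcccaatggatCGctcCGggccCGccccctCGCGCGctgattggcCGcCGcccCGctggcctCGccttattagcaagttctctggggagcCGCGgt
MEIS1: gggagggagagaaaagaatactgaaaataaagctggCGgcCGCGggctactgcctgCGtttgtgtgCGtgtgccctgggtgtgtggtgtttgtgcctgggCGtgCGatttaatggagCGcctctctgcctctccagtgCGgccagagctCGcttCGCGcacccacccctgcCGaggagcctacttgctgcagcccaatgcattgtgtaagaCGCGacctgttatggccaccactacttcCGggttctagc
These stretches hold 25 CpG in LHX2, 24 in MSX1, 16 in MEIS1 and 8 in SOX4.

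**Figure D2:**
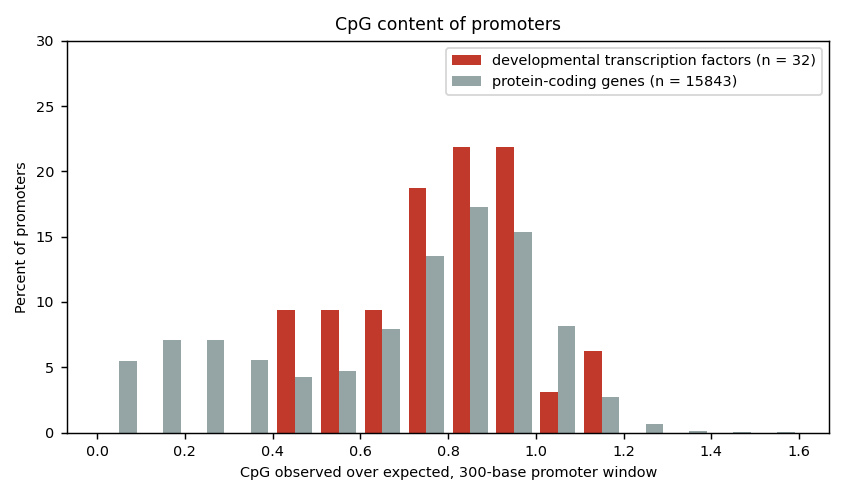
Ratio of observed to expected CpG in promoter windows on the x axis and percent of promoters on the y axis, for 32 members and 15843 protein-coding genes. No member lies below 0.483, whereas protein-coding promoters spread down to 0.

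GSK126 changed 15 of these genes in at least 1 line, as it did 57.3% of all tested genes. Among 270 combinations of a tested member and a line, 20 rises and 9 falls were called. Over all tested genes 7.55% of such combinations rose and 5.13% fell in the same fit. With arrays brought to equal medians, a setting chosen after seeing the data, the members had 12 rises and 11 falls. Those shares do not apply to that setting, since it changed the calls of all tested genes too. In SU-DHL-10 their 1673 rises and 1089 falls became 777 and 3320. In HT their 960 rises and 457 falls became 506 and 342. The counts that follow are without that setting. Rises touched 12 members and falls 8, where 38% of all tested genes rose and 28.3% fell in at least 1 line. SOX4, SOX9, MSX1, MEIS2 and WT1 did both, in different lines, as did 9.09% of all genes. Since a member could pass the filter through the group where it is bright, these counts are a description of the members that passed. Over all 46 members the median change per line ran between -0.07 in KARPAS-422 and 0.14 in Toledo, beside -0.01 to 0.07 over all 19775 genes. Over the 460 combinations of the 46 members with a line, both GSK126 arrays lay above both DMSO arrays in 132 and below them in 80, beside 26.6% and 20.4% over all genes.

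By line, Pfeiffer had 5 risen members and 1 fallen, where 14.6% of all tested genes rose and 9.93% fell. WSU-DLCL2 had 2 risen and 4 fallen, beside 13.9% and 12.7% of all genes. KARPAS-422 had 2 risen and 4 fallen, beside 15.5% and 13.4%. SU-DHL-10 had 3 risen and 0 fallen, beside 11% and 7.16%, and HT had 4 risen and 0 fallen, beside 6.31% and 3%. SU-DHL-6 had 2 risen members (7.42% of all genes), DB 1 (2.5%) and OCI-LY-19 1 (1.97%), with 0 fallen in each (3.56%, 0.618% and 0.44%). In SU-DHL-4 and Toledo 0 members were called, where 2.14% and 0.138% of all genes rose and 0.454% and 0.0263% fell. Over the 10 lines limma gave 30 rises and 14 falls of members at an unadjusted p under 0.05. No share of all genes was taken at that threshold, so these counts cannot be set against the shares above.

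**Figure D3:**
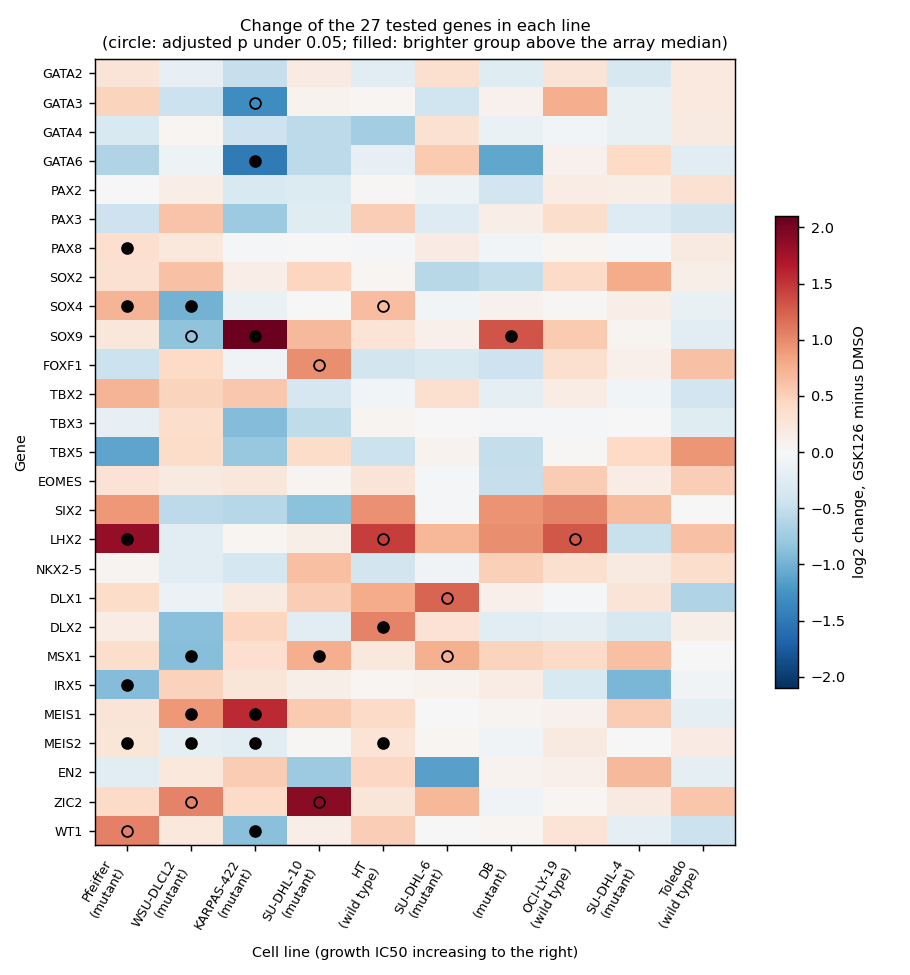
Log2 change, GSK126 minus DMSO, of the 27 tested members in each line, with lines ordered by growth IC50 and genes by family. Circles mark adjusted p under 0.05, filled where the brighter group exceeded the array median on both arrays. The 20 rises and 9 falls are scattered over 15 genes, and SU-DHL-4 and Toledo hold no circle.

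Many of the called rises were at signals near background. Both GSK126 arrays exceeded the median in 11 of the 20 rises, against 91.8% of the rises of all genes, which makes 6.94% of all combinations of a gene and a line rises of that kind. A single GSK126 array did in 2 rises and none in 7. For the falls, both DMSO arrays exceeded it in 7 of 9, against 97.8% for all genes (5.01% of all combinations). SIX2 in DB and MEIS1 in WSU-DLCL2 were above background under GSK126 and on no array under DMSO. The opposite held for GATA4 in HT, GATA6 in KARPAS-422, FOXF1 in Pfeiffer, MEIS1 in Toledo, and PAX3 and TBX3 in SU-DHL-10. Over all genes and lines 0.962% of combinations changed upward and 0.688% downward in this way.

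Of the GATA genes, GATA6, a regulator of endoderm and heart, and GATA3, a regulator of T cells, changed in KARPAS-422. GATA6 had 4.53 and 3.95 on the GSK126 arrays and 5.97 and 6.82 on the DMSO arrays of that line. Both GSK126 arrays were lower and below the median, and a fall was called (adjusted p = 0.0402). The DMSO mean was 1.24-fold above the medians of the GSK126 arrays (6.00 and 6.16), but DMSO replicate 1 lay below both of these. The call was lost without DMSO replicate 2, GSK126 replicate 1 or GSK126 replicate 2 (adjusted p 0.0837 to 0.256) and in 3 of 8 other settings, and the second probe set of GATA6, on 0 arrays above the median in that line, gave 0.17 (adjusted p = 0.718). GATA3 had -0.16 and 3.63 on the GSK126 arrays and 5.77 and 4.91 on the DMSO arrays. All 4 arrays were below the median, the groups did not overlap, and the adjusted p was 0.0243, 0.199 when DMSO replicate 1 was left out, 0.217 when GSK126 replicate 1 was, and over the threshold in 2 of 7 other settings. In the same line ITGAM and CSF1R, 2 of the 3 tested myeloid markers, also fell. ITGAM had 5.94 and 3.99 under GSK126 and 6.90 and 7.14 under DMSO (adjusted p = 0.00126). CSF1R had 4.09 and 5.19 under GSK126 and 5.79 and 6.71 under DMSO (adjusted p = 0.0455), near background. LYZ, the third tested marker, fell in 0 lines and rose in SU-DHL-10. It had 6.38 and 6.07 under GSK126 there and 4.59 and 2.73 under DMSO (adjusted p = 0.0155). S100A8 exceeded the median on 1 array. CD14 was above the median on 0 arrays, the summed level of the 5 myeloid markers lay between 6.74 and 8.27 under GSK126 and between 6.98 and 8.57 under DMSO over all lines, and the part of these markers was not tested.

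GATA2, a regulator of blood stem cells, was above background in 9 lines under either treatment and called in none. Its largest change was -0.48 ± 0.35 in KARPAS-422 (adjusted p = 0.342). GATA4, a heart regulator, was above background in 2 lines under GSK126 and 3 under DMSO, and its array values lay between 3.73 and 7.31 by the probe set used. That probe set was not above background in Pfeiffer, where another probe set of GATA4 was, at 7.59 under GSK126 and 6.86 under DMSO (adjusted p = 0.348). In Pfeiffer GATA3 was above background, with 6.98 and 7.37 under GSK126 and 6.57 and 6.70 under DMSO. Its GSK126 arrays were higher there without passing the test (0.47 ± 0.44).

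Among the PAX genes a single change was called. PAX8 had 10.01 and 10.42 on the GSK126 arrays of Pfeiffer and 9.62 and 10.08 on the DMSO arrays, and the groups overlapped. The change was 0.36 ± 0.13 (adjusted p = 0.0449). Without DMSO replicate 1 it was 0.14 (adjusted p = 0.61), without GSK126 replicate 2 it was 0.16 (adjusted p = 0.541), and the call was lost in 4 of 7 other settings. Only 2 of the other 7 PAX8 probe sets moved upward in Pfeiffer, and 1 was called as a fall, with 5.08 under GSK126 and 6.29 under DMSO (adjusted p = 0.0443 in the fit of all probe sets), so that no direction can be given for PAX8. PAX2, a kidney regulator, and PAX3, of neural crest and muscle, were tested and not called, with changes between -0.76 and 0.60. PAX6, the eye regulator, was above the median on 0 arrays.

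The SOX genes held the clearest opposite responses. SOX4 had 10.88 and 10.82 on the GSK126 arrays of Pfeiffer and 10.17 and 10.10 on its DMSO arrays, a rise of 0.71 ± 0.12 (adjusted p = 8.22e-05). In WSU-DLCL2 it had 10.56 and 10.47 under GSK126 and 11.48 and 11.56 under DMSO, a fall of -0.99 ± 0.12 (adjusted p = 5.71e-07). Replicates lay close together in these groups, and the treatments did not overlap in either line. Both changes held in every alternative setting and without any array, and 2 other probe sets of SOX4 were called in the same direction in each of the 2 lines, while 2 dim ones gave positive differences in WSU-DLCL2 without a call.

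In HT, SOX4 had 4.17 and 4.27 on the GSK126 arrays and 2.79 and 2.02 on the DMSO arrays. All 4 were far below the array median without overlap (adjusted p = 0.000663), and the difference was not called with a pseudocount of 100 (adjusted p = 0.311), with the mean of all probe sets (adjusted p = 0.648) or with HT fitted alone (adjusted p = 0.277). In SU-DHL-10 the 2 GSK126 arrays of SOX4 lay on either side of the DMSO arrays, at 7.06 and 7.92 against 7.47 and 7.54. Its change there was -0.01 ± 0.12, was called as 0.38 without GSK126 replicate 1 and as -0.40 without GSK126 replicate 2, and a second probe set gave 0.90 (adjusted p = 0.000215). No direction can be given for SOX4 in that line. In Toledo and OCI-LY-19, where SOX4 was brightest, its changes were -0.16 ± 0.12 and 0.03 ± 0.12.

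SOX9 made the largest change of the 46 members on the log2(signal + 17.7) scale. In KARPAS-422 it had 11.13 and 11.24 on the GSK126 arrays and 9.14 and 9.04 on the DMSO arrays, a rise of 2.06 ± 0.31 (adjusted p = 8.2e-06). The groups stood far apart beside the spread of their replicates, and the call held in every alternative setting and without any array. SOX9 also rose in DB, with 9.57 and 9.58 under GSK126 and 8.06 and 8.36 under DMSO (1.32 ± 0.31, adjusted p = 0.0136). The DB arrays did not overlap either, but the adjusted p was 0.322 with a pseudocount of 1 and 0.101 to 0.154 without DMSO replicate 1, GSK126 replicate 1 or GSK126 replicate 2. In HT, the third line that expressed it, SOX9 had 9.73 and 9.86 under GSK126 and 9.55 and 9.45 under DMSO, and its change of 0.29 ± 0.31 did not pass the test (adjusted p = 0.712). The second probe set of SOX9 gave 2.17 in KARPAS-422 and 1.26 in DB, called in both.

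In WSU-DLCL2, SOX9 had 3.43 and 4.83 under GSK126 and 5.64 and 5.49 under DMSO. All 4 arrays were below the median (adjusted p = 0.0475), and the adjusted p was 0.112 to 0.421 without DMSO replicate 1, DMSO replicate 2 or GSK126 replicate 1, the call being lost in 4 of 8 other settings too. SOX2 was called in no line. In SU-DHL-4 it had 8.55 and 8.86 under GSK126 and 8.01 and 7.73 under DMSO, higher on both GSK126 arrays (0.79 ± 0.38, adjusted p = 0.365); the mean of its probe sets gave 0.80 with adjusted p = 0.0202. SOX11, a neuronal factor, and SOX17, an endoderm factor, were above the median on 0 arrays.

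FOXF1, a regulator of lung and gut mesenchyme, was the only tested forkhead member. In SU-DHL-10 it had 5.99 and 6.61 on the GSK126 arrays and 5.32 and 4.59 on the DMSO arrays. A single GSK126 array was above the median (adjusted p = 0.0463). The GSK126 mean of 6.30 lay below the medians of those arrays, 6.33 and 6.34, so no fold is given. Leaving out any 1 of the 4 arrays gave an adjusted p of 0.0531 to 0.283, and the call was lost in 6 of 8 other settings. FOXC2, FOXD3 and FOXL2, regulators of lymph vessels, neural crest and ovary, were above the median on at most 1 array.

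None of the T-box genes was called in the fit described. TBX2 and TBX3, repressors in heart and limb, were near the median, with TBX2 above background in 5 lines under GSK126 and 6 under DMSO and TBX3 in 2 and 6. Their changes lay between -0.90 and 0.72. TBX3 in KARPAS-422 had 5.86 and 2.51 under GSK126 and 5.86 and 6.01 under DMSO (adjusted p = 0.0949), and was called as a fall with a pseudocount of 1 (adjusted p = 0.0457), with equal medians (0.0423) and without GSK126 replicate 1 (0.00203). The spread of its GSK126 arrays exceeded the difference. EOMES, a factor of mesoderm and cytotoxic lymphocytes, was highest in Pfeiffer, with 8.0 and 8.12 under GSK126 and 7.71 and 7.76 under DMSO. The GSK126 arrays were higher, but the change of 0.31 ± 0.31 did not pass the test (adjusted p = 0.537). TBX5, the forelimb and heart factor, exceeded the median on 2 of the 40 arrays and TBX15, a skeletal factor, on 0.

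The homeobox genes gave 11 of the 20 rises and 4 of the 9 falls. LHX2, a LIM homeobox regulator of forebrain and hair follicle, had the largest of these changes. In Pfeiffer it had 9.65 and 9.57 on the GSK126 arrays and 7.76 and 7.59 on the DMSO arrays, a rise of 1.85 ± 0.34 (adjusted p = 0.000162). The groups did not overlap, the call held in every alternative setting and without any array, and the second probe set of LHX2 gave 1.31 (adjusted p = 0.0199).

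In HT, LHX2 had 5.87 and 5.01 under GSK126 and 1.64 and 2.79 under DMSO, without overlap (adjusted p = 0.00602). In OCI-LY-19 it had 6.00 and 5.94 under GSK126 and 3.68 and 4.10 under DMSO, again without overlap (adjusted p = 0.0375). All of these arrays were below the median, so no fold is given. The HT call was lost without DMSO replicate 1 (adjusted p = 0.0731) or GSK126 replicate 1 (adjusted p = 0.131) and in 2 of 8 other settings, and the OCI-LY-19 call in all 8 other settings (adjusted p from 0.0502) and without any of its arrays (0.118 to 0.21). DB expressed LHX2 at 7.96 and 7.76 under GSK126 and 6.34 and 7.21 under DMSO. Its arrays did not overlap, with a change of 0.97 ± 0.34 that did not pass the test (adjusted p = 0.151), but passed it with a pseudocount of 100 (0.65, adjusted p = 0.0128) and with the mean of both probe sets (1.37, adjusted p = 0.00755).

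MSX1 went opposite ways in WSU-DLCL2 and SU-DHL-10. In WSU-DLCL2 it had 8.78 and 8.78 on the GSK126 arrays and 9.78 and 9.61 on the DMSO arrays, a fall of -0.89 ± 0.20 (adjusted p = 0.00126) that held in every alternative setting and without any array. In SU-DHL-10 it had 7.96 and 8.09 under GSK126 and 7.00 and 7.39 under DMSO, a rise of 0.76 ± 0.20 (adjusted p = 0.00775). Neither line showed an overlap, and the SU-DHL-10 call was lost without DMSO replicate 1 (adjusted p = 0.128) or GSK126 replicate 2 (adjusted p = 0.0633) and in 3 of 8 other settings. The second probe set of MSX1, above background in all 10 DMSO groups, moved the same way in both lines but was called in 0 lines.

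In SU-DHL-6, MSX1 had 6.57 and 6.08 under GSK126 and 5.40 and 5.31 under DMSO. A single GSK126 array was above the median (adjusted p = 0.0152). The GSK126 mean of 6.33 lay between the medians of those arrays, 6.32 and 6.47, so no fold is given. That call was lost without DMSO replicate 1, DMSO replicate 2 or GSK126 replicate 1 (adjusted p 0.0648 to 0.193) and in 4 of 8 other settings. The remaining 7 changes of MSX1 were all above 0, between 0.01 and 0.63, and none passed the test. WSU-DLCL2 was thus the single line with a negative change by this probe set, while the second probe set of MSX1 gave negative differences in KARPAS-422, HT and DB as well, none of them called.

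**Figure D4:**
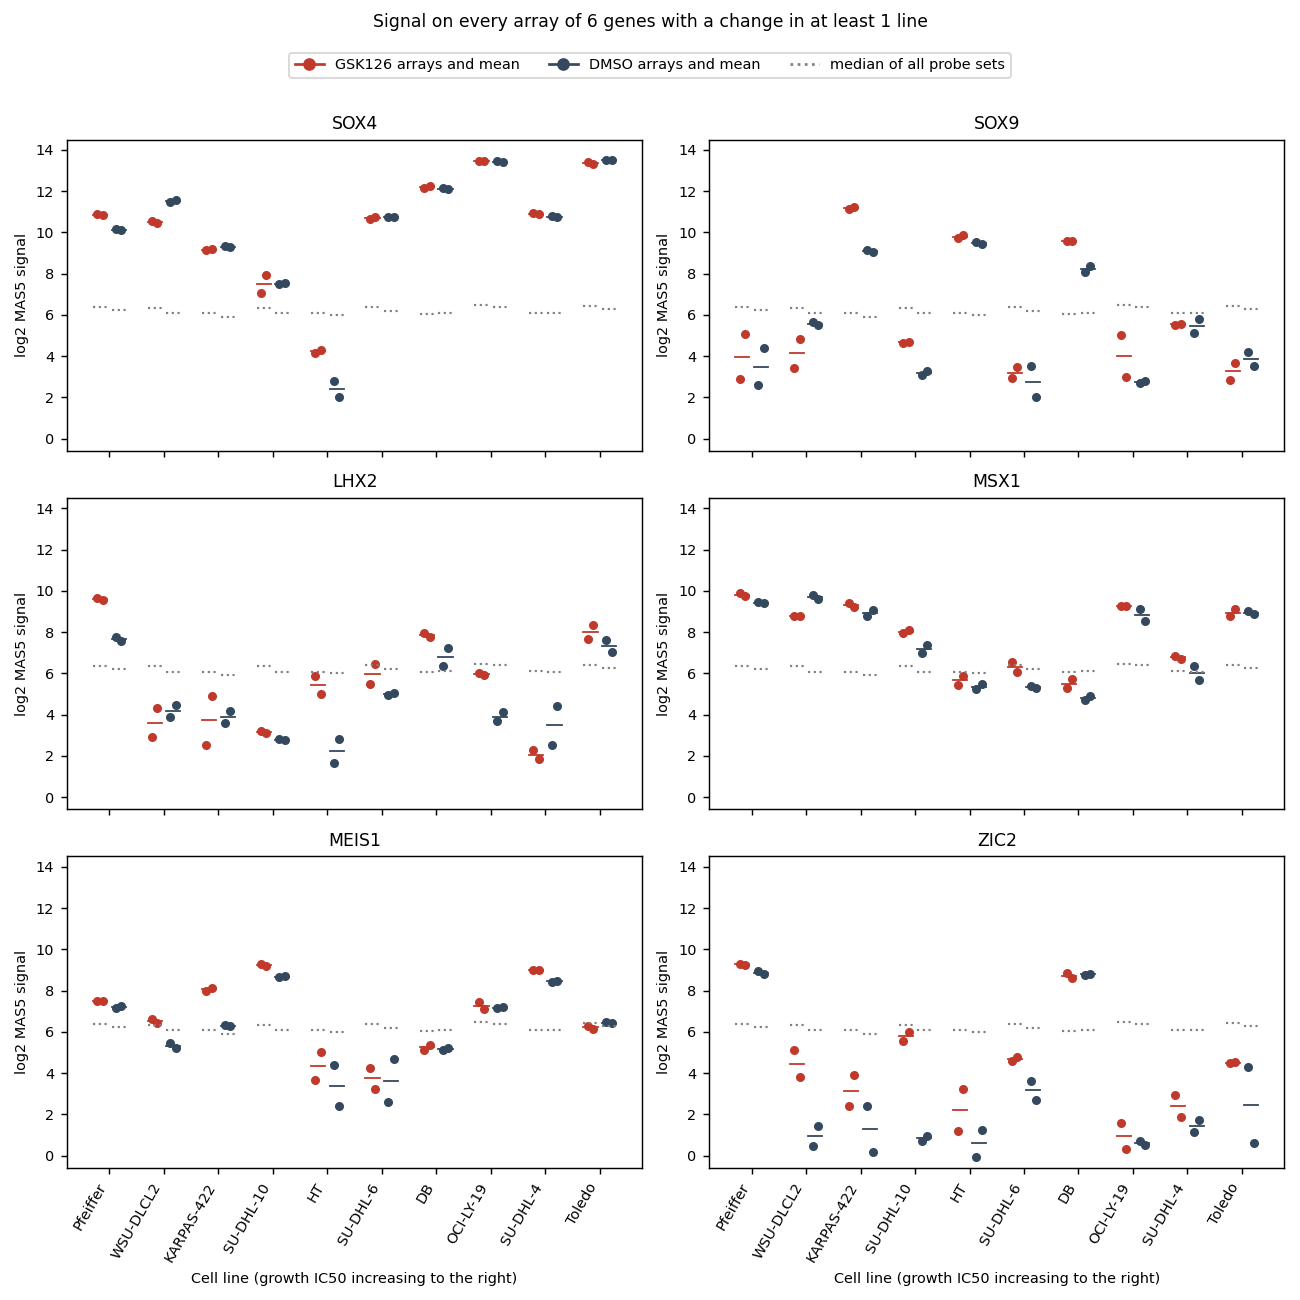
Log2 MAS5 signal of SOX4, SOX9, LHX2, MSX1, MEIS1 and ZIC2 on every array, with lines in order of growth IC50 and GSK126 left of DMSO in each. Points are arrays, solid bars their mean, and dotted bars the mean of the 2 array medians. SOX9 in KARPAS-422 shows 11.13 and 11.24 under GSK126 above 9.14 and 9.04 under DMSO, and SOX4 in WSU-DLCL2 shows the reverse order.

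MEIS1, which partners HOX proteins, rose in KARPAS-422. It had 8.0 and 8.11 on the GSK126 arrays and 6.31 and 6.28 on the DMSO arrays, a rise of 1.56 ± 0.26 (adjusted p = 2.82e-05). There was no overlap, the call held in every alternative setting and without any array, and the second probe set gave 1.38 (adjusted p = 0.00441). In WSU-DLCL2 it had 6.60 and 6.41 under GSK126 and 5.46 and 5.21 under DMSO, with both DMSO arrays below the median. MEIS1 was called as higher there under GSK126 (adjusted p = 0.00942). Its GSK126 mean was 1.34-fold above the DMSO array medians (6.00 and 6.16), but the medians of the GSK126 arrays were higher, both 6.34. The call was lost without DMSO replicate 2 (adjusted p = 0.0744) or GSK126 replicate 1 (adjusted p = 0.0761) and in 4 of 8 other settings. The second probe set of MEIS1, on 0 arrays above the median in that line, gave -0.26.

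SU-DHL-10 and SU-DHL-4, the lines with the most MEIS1, had higher GSK126 arrays without passing the test. SU-DHL-10 had 9.31 and 9.18 under GSK126 and 8.64 and 8.71 under DMSO (0.55 ± 0.26, adjusted p = 0.155). SU-DHL-4 had 8.98 and 9.0 under GSK126 and 8.43 and 8.46 under DMSO (0.53 ± 0.26, adjusted p = 0.391). Neither line showed an overlap, and both were called with a pseudocount of 100 (adjusted p = 0.00163 and 0.0145).

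MEIS2 was bright and its changes were small. In HT it had 10.87 and 10.95 under GSK126 and 10.69 and 10.56 under DMSO (0.28 ± 0.07, adjusted p = 0.00468). In Pfeiffer it had 11.87 and 11.74 under GSK126 and 11.56 and 11.55 under DMSO (0.25 ± 0.07, adjusted p = 0.00491). In both lines the GSK126 arrays were higher without overlap. With arrays brought to equal medians, a setting chosen after seeing the data, the changes were 0.21 (adjusted p = 0.228) and 0.10 (adjusted p = 0.546).

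MEIS2 fell in KARPAS-422, with 10.88 and 10.91 under GSK126 and 11.11 and 11.14 under DMSO (-0.23 ± 0.07, adjusted p = 0.00776). It also fell in WSU-DLCL2, with 11.52 and 11.46 under GSK126 and 11.72 and 11.62 under DMSO (-0.18 ± 0.07, adjusted p = 0.0365). The groups did not overlap in either line. The WSU-DLCL2 call was lost with quantile normalization (adjusted p = 0.0657), the line fitted alone (0.077) and a replicate block (0.0587). With HT fitted alone, the HT call was lost too (0.0606). Of the 4 MEIS2 calls, that of Pfeiffer was lost without GSK126 replicate 1 (adjusted p = 0.105), that of HT without DMSO replicate 2 (0.119) or GSK126 replicate 2 (0.0817), that of KARPAS-422 without DMSO replicate 2 (0.0584) or GSK126 replicate 1 (0.0523), and that of WSU-DLCL2 without DMSO replicate 1, GSK126 replicate 1 or GSK126 replicate 2 (0.0658 to 0.28).

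DLX1 and DLX2 are neighbours on chromosome 2 that act in forebrain interneurons and the jaw. DLX2 in HT had 7.42 and 7.12 under GSK126 and 5.44 and 6.59 under DMSO (1.05 ± 0.34, adjusted p = 0.0464). A single DMSO array was above the median and the groups did not overlap, but the call was lost in 7 of 8 other settings and without DMSO replicate 1, GSK126 replicate 1 or GSK126 replicate 2 (adjusted p 0.106 to 0.52), and its second probe set gave -0.35 in HT (adjusted p = 0.719). In WSU-DLCL2 DLX2 had 5.63 and 3.63 under GSK126 and 5.97 and 6.06 under DMSO, all below the median (adjusted p = 0.0553), called as a fall with quantile normalization (0.0195), the mean of all probe sets (0.015), equal medians (0.019) and without GSK126 replicate 1 (0.00556). DLX1 in SU-DHL-6 had 4.98 and 5.53 under GSK126 and 2.75 and 2.52 under DMSO, all below the median (adjusted p = 0.00647, and 0.0879 without GSK126 replicate 2). With SU-DHL-6 fitted alone the adjusted p of DLX1 was 0.115. Both genes were brightest in KARPAS-422, where DLX2 had 8.61 and 8.55 under GSK126 and 7.90 and 8.30 under DMSO, and neither passed the test there.

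IRX5 fell in Pfeiffer, where it was brightest. It had 8.08 and 7.91 under GSK126 and 8.96 and 8.95 under DMSO (-0.92 ± 0.30, adjusted p = 0.0253). The groups did not overlap, and leaving out any 1 of the 4 arrays gave an adjusted p of 0.0669 to 0.134. With a pseudocount of 1, IRX5 had an adjusted p of 0.156 there. Its largest difference was in SU-DHL-4, with 3.07 and 5.02 under GSK126 and 5.31 and 6.08 under DMSO (adjusted p = 0.0979), with 1 DMSO array above the median, and without GSK126 replicate 2 of that line this passed the test (adjusted p = 0.0349). SIX2, a factor of kidney progenitors, NKX2-5 and EN2, a midbrain factor, were tested and not called, with changes between -1.15 and 1.05. LHX9, NKX2-2, NKX6-1, DLX5, MSX2, IRX3, OTX2 and BARX1, regulators of gonad, neural tube, pancreas, bone, face, heart, forebrain and stomach, were not tested.

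Of the bHLH genes, NEUROG2, OLIG2 and TWIST1, regulators of neurons, oligodendrocytes and mesoderm, were above the median on 0 arrays. Across the 19 members that were not tested, the highest array value of a member lay between 4.91 for NKX2-2 and 6.38 for BARX1. Of these 19 members, 17 exceeded the median on 0 arrays, and FOXC2 and BARX1 did on 1. Their level was at the lower edge of what these arrays measure, so no fold is given for them.

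Among the other zinc fingers, ZIC2 differed most in lines where it stayed below the median. In SU-DHL-10 it had 5.53 and 6.01 on the GSK126 arrays and 0.73 and 0.94 on the DMSO arrays. All 4 arrays were below the median, the groups did not overlap (adjusted p = 2.53e-05), and the call held in every alternative setting and without any array. In WSU-DLCL2 it had 5.09 and 3.81 under GSK126 and 0.46 and 1.45 under DMSO, also below the median (adjusted p = 0.00893, with 0.0583 when DMSO replicate 1 was left out and 0.194 when GSK126 replicate 1 was). With WSU-DLCL2 fitted alone the adjusted p was 0.079. In Pfeiffer and DB, which expressed ZIC2, the changes were 0.41 ± 0.30 and -0.07 ± 0.30.

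WT1 fell in KARPAS-422, the line with its highest vehicle level. It had 7.97 and 7.82 under GSK126 and 8.76 and 8.90 under DMSO (-0.89 ± 0.28, adjusted p = 0.0164). The groups did not overlap, and the adjusted p was 0.0526 to 0.0988 without DMSO replicate 1, DMSO replicate 2 or GSK126 replicate 2. With a pseudocount of 1 it was 0.378. In Pfeiffer WT1 had 5.05 and 4.87 under GSK126 and 2.37 and 2.63 under DMSO, all below the median and without overlap (adjusted p = 0.00524). That call was lost with the mean of all probe sets (adjusted p = 0.107) and with Pfeiffer fitted alone (0.0853), and the second probe set of WT1 gave -0.12 there. ZIC1, the paralog of ZIC2, was above the median on 0 arrays.

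The question across lines was whether these genes responded together in a genotype or with sensitivity, with the line as replicate. In the mean of the 7 mutant lines limma called 0 members, where 5.57% of all genes were called, and 2 members had an unadjusted p under 0.05. ZIC2 (adjusted p = 0.0747) was positive in 6 of the 7 mutant lines but above background in 2 of them, so no mean is given. MEIS1 averaged 0.55 ± 0.17 (adjusted p = 0.0766), also positive in 6. MEIS1 passed the test with a pseudocount of 100 (0.37, adjusted p = 0.0427) and without DMSO replicate 2 of SU-DHL-6 (0.61, adjusted p = 0.0491). The labels carry a tag of unknown meaning that may mark a batch. The MEIS1 mean of mutant lines was 0.92 in the 2 lines of tag R6, 0.51 in the 4 of R7 and -0.014 in SU-DHL-6, the sole mutant line of R8.

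In the mean of the 3 wild type lines 0 members were called, as were 0% of all genes, and 2 members, LHX2 and EOMES, had an unadjusted p under 0.05 in limma. No size is given, since LHX2 was above background in Toledo alone of these lines and EOMES in none. The difference between mutant and wild type lines called 0 members and 0% of all genes, with EOMES alone under an unadjusted p of 0.05. Regressed on log10 growth IC50, the changes called 0 members, beside 0.00657% of all genes, with TBX2 (adjusted p = 0.397) and TBX5 (adjusted p = 0.398) under an unadjusted p of 0.05 in limma. TBX5 was above background in no group, so its slope rests on background values. For the vehicle level of mutant against wild type lines 0 members were called, beside 0.0526% of all genes. MEIS2, 1.36 ± 0.37 higher in the mutant lines (adjusted p = 0.49), was the sole member with an unadjusted p under 0.05.

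Responses differed between lines for 9 of the 27 tested members, namely SOX4, SOX9, LHX2, DLX1, MSX1, MEIS1, MEIS2, ZIC2 and WT1. The test was an F-test of the 10 responses in limma, adjusted over all genes. Of all tested genes 38.8% differed in this way, so such differences were no more frequent among the members.

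Other transcription factors put these changes in context. Of 70 paralogs of the members, 65 had a probe set and 32 were tested, with 7 rises and 3 falls among 320 combinations with a line. Over all tested genes 7.55% of combinations rose and 5.13% fell. Above background in at least 1 line under DMSO were 26 of the 65 paralogs. SOX6, a factor of cartilage and red cells, rose in 2 of them, and in Pfeiffer it had 8.64 and 9.34 under GSK126 and 8.06 and 8.32 under DMSO (0.77 ± 0.14, adjusted p = 0.000182). TBXT, the notochord regulator, had 6.61 and 6.83 under GSK126 in Pfeiffer and 4.70 and 4.62 under DMSO (adjusted p = 0.0246). NKX6-2, a neural tube factor, had 3.92 and 2.96 under GSK126 in DB and 6.00 and 6.30 under DMSO (adjusted p = 0.046). The treatments did not overlap in SOX6, and SOX6 was above background in all 10 lines.

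The 22 measured B cell transcription factors gave 45 rises and 12 falls among 220 combinations, beside 7.55% and 5.13% over all tested genes. All 22 were above background in at least 1 line under DMSO, against 25 of the 46 members. The lists thus stood at unlike signal levels, and their counts were not compared by a test. BACH2, a repressor of plasma cell fate, rose in 5 lines, and in KARPAS-422 it had 9.89 and 10.00 under GSK126 and 6.22 and 6.04 under DMSO (3.51 ± 0.16, adjusted p = 5.36e-16). MEF2C, a factor of B cell activation, rose in 2 lines and fell in 3, and in Pfeiffer it had 7.25 and 7.39 under GSK126 and 4.62 and 4.95 under DMSO, the DMSO arrays being below the median (adjusted p = 2.1e-16). LMO2, a germinal centre marker, rose in 5 lines, and in Pfeiffer it had 11.13 and 11.15 under GSK126 and 9.44 and 8.97 under DMSO (1.90 ± 0.16, adjusted p = 4.11e-10). None of the 3 showed an overlap in these lines.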

How the data were processed

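RNA of every culture was hybridised to its own Affymetrix array, 40 in all. The authors deposited log2 signals for 54675 probe sets, made with MAS5 (version not given in the sources used here) per the submitters' processing notes. MAS5 scales each array alone, so a shift of the whole array would enter the comparisons, and dim probe sets scatter widely. Detection calls were not used. The number of arrays limits the precision.

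Samples were grouped by line and treatment from the labels. Signals were brought back to linear, 17.7 was added (the median of each array's 25th percentile), and log2 taken. Symbols came from the platform annotation, and 41091 probe sets had 1 symbol. In R 4.3.3, limma 3.58.1 fitted all 40 arrays with 1 mean per group and an intensity trend (20 residual degrees of freedom), and tested GSK126 minus DMSO in each line. Across lines, each line gave 1 change. Tests were two-sided. Where the dimmer group was below the median, a fold value sets the brighter group's mean against the array medians of the dimmer group. Each called member was given its arrays in the line of largest change, and the 3 paralogs and B cell factors with most lines called were named. The members, lists and rules were chosen with earlier results of these data known. The tests were checked on simulated data. Alternatives were other pseudocounts, quantile normalization, no filter, the mean of all probe sets, each line alone, a replicate block, each array left out, and, chosen after seeing the data, arrays at equal medians, every probe set of a member, and calls above the median alone.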

Additional observations from a re-analysis of the deposited data

Results flagged for a closer look

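Within the 7 mutant lines, 30 sets of values (the DMSO level and the change of each called member) were examined for a line far from the others by Dixon's criterion, and 3 stood out. Chance flags about 1 in 20 groups that were not selected. These members were chosen because a change was called in some line, so that rate does not apply to the changes. WT1 exceeded the median on 8 arrays, those of KARPAS-422 among them, and FOXF1 on 7, the DMSO arrays of Pfeiffer among them. The rate does not apply to their levels either. The change of MSX1 in WSU-DLCL2 was -0.89, while the other 6 mutant lines lay between 0.36 and 0.76. The DMSO level of FOXF1 in Pfeiffer was 6.63, against 4.18 to 5.22 in the others, and that of WT1 in KARPAS-422 was 8.83, against 1.16 to 2.50.

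The response to GSK126 differed among the 10 lines for 9 of the 27 tested members by the F-test in limma. It did so for 38.8% of all tested genes, so the members did not exceed the general share. The adjusted p was 9.49e-07 for SOX4, 0.000221 for MEIS2, 0.000432 for SOX9, 0.00124 for MSX1, 0.00276 for LHX2, 0.0102 for MEIS1, 0.0127 for ZIC2, 0.0161 for WT1 and 0.0401 for DLX1. SOX4, SOX9, MSX1, MEIS2 and WT1 were called in both directions, while LHX2, MEIS1, ZIC2 and DLX1 were called upward alone.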

How the results depend on the processing

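Of the 29 calls, 7 held in all 8 alternative settings and without any array: SOX4 in Pfeiffer and WSU-DLCL2, SOX9 and MEIS1 in KARPAS-422, LHX2 in Pfeiffer, MSX1 in WSU-DLCL2 and ZIC2 in SU-DHL-10. The other 22 were lost in at least 1, and 0 turned direction. The replicate numbers of the 2 treatments did not pair the arrays (correlation of deviations -0.04 to 0.07 by line). With the replicate block, 25 calls held, and FOXF1 in SU-DHL-10, LHX2 in OCI-LY-19, DLX2 in HT and MEIS2 in WSU-DLCL2 were lost, leaving 0 risen in OCI-LY-19. The 20 rises became 11 with each line fitted alone, 12 (beside 11 falls) with arrays at equal medians (where the median of all genes shifted by -0.23 to 0.04) and 11 when both GSK126 arrays had to exceed the median. Calls of all genes changed with these settings too, as given by line below.

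Counts by line follow, with the count of all genes called the same way in parentheses. Unless stated, 27 members and 15211 genes were tested. Pseudocount 1 gave 1 risen in WSU-DLCL2 (1903), 0 in DB (357) and 0 in OCI-LY-19 (280), and 0 fallen in Pfeiffer (1452). Pseudocount 100 gave 2 risen in HT (1094), 1 in SU-DHL-6 (1311), 2 in DB (441), 0 in OCI-LY-19 (363) and 1 in SU-DHL-4 (436). It also gave 2 fallen in KARPAS-422 (2093) and 1 member called in the mean of mutant lines. Quantile normalization gave 1 risen in WSU-DLCL2 (2023), 1 in SU-DHL-6 (870) and 0 in OCI-LY-19 (298). Without the filter, 46 members among 19775 genes were tested. Then 0 rose in OCI-LY-19 (272), 2 fell in Pfeiffer (1458) and 1 in SU-DHL-10 (1030). The added falls were of DLX5, whose arrays were all below the median. With the mean of all probe sets, 19 members among 13815 genes were tested. It gave 3 risen in Pfeiffer (1831), 1 in WSU-DLCL2 (2062), 2 in HT (756), 2 in DB (304), 0 in OCI-LY-19 (226) and 1 in SU-DHL-4 (246). Each line alone gave 1 risen in WSU-DLCL2 (2109), 0 in HT (772), 0 in SU-DHL-6 (309) and 0 in OCI-LY-19 (122), and 2 fallen in WSU-DLCL2 (1916). Equal medians gave 3 risen in Pfeiffer (969), 1 in WSU-DLCL2 (827), 1 in SU-DHL-10 (777), 2 in HT (506) and 0 in OCI-LY-19 (127). The cause of these shifts was not tested. The MEIS1 mean of mutant lines was -0.014 within tag R8.

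Leaving out 1 array gave 16 to 20 rises and 5 to 10 falls in all, the 5 without DMSO replicate 2 of KARPAS-422. Risen members were then 4 to 5 in Pfeiffer, 0 to 2 in WSU-DLCL2, 1 to 3 in SU-DHL-10, 2 to 5 in HT, 1 in SU-DHL-6, 0 to 1 in DB, 0 in OCI-LY-19 and 0 to 1 in SU-DHL-4. Fallen members were 0 in Pfeiffer, 2 to 3 in WSU-DLCL2, 1 to 2 in KARPAS-422, and 0 to 1 in SU-DHL-10 and in SU-DHL-4. Response differences were called for 8 to 11 members, vehicle differences for 18 to 21, and the mutant mean for 0 to 1. Shares of all genes were not taken without an array, so these counts describe the members alone.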

Other observations

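Probe sets of a member did not always report the same level. The chosen probe set of GATA6 was below the median on both GSK126 arrays of Pfeiffer (mean 4.79, against 5.79 under DMSO), while its other probe set was above background there, at 7.37 under GSK126 and 6.60 under DMSO. For LHX2 in DB, where the chosen probe set was not called, the second probe set was at 7.01 under GSK126, with both arrays above the median, and 4.61 under DMSO, with none, a difference called at adjusted p = 0.0132 in the fit of all probe sets. Of the 29 calls, 21 were of genes with another probe set, all of whose others moved in the same direction in 13.

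Markers of other cell types were present in some lines. Of the 7 T and NK markers, CD3E was above the median on 36 of the 40 arrays. CD8A, CD3D and CD3G were each above background in 1 line, reaching 13.94, 12.38 and 11.96, CD2 exceeded the median on 1 array, and NKG7 and GNLY did on 0. Of the 5 myeloid markers, ITGAM was above the median on 23 arrays, CSF1R on 11, LYZ on 2, S100A8 on 1 and CD14 on 0. Of the 8 stromal and epithelial markers, COL1A1 was above the median on 40 arrays, DCN on 39, KRT8 on 34, COL1A2 on 14, KRT18 on 11, EPCAM on 4 (reaching 13.61), and COL3A1 and CDH1 on 0. DCN rose in 3 lines, and in WSU-DLCL2 it had 12.04 and 11.99 under GSK126 and 11.18 and 11.01 under DMSO (0.91 ± 0.13, adjusted p = 6.35e-06 in limma). The summed level of the T and NK list ran between 7.48 and 13.96 log2 units under GSK126, against 6.55 to 13.70 under DMSO. Their part in the members' levels was not tested.

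OLIG2 in WSU-DLCL2 had 5.43 and 5.33 under GSK126 and 2.94 and 3.43 under DMSO, all below the median, and entered the calls when no filter was applied (adjusted p = 0.00319).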
